A study of Rattus norvegicus with 6 samples.

Results

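Kinesins are motor proteins that hydrolyse ATP to move along microtubules or to take them apart at their ends. One set works on the mitotic spindle, pushing its poles apart, aligning chromosomes and building the midzone where the daughter cells separate. A second set carries vesicles, organelles and protein complexes through the cytoplasm, which in a Schwann cell includes supply of the long processes that wrap or contact axons. Kinesin genes were taken from the deposited count table by their symbol, Kif followed by a number and an optional letter a to c, or Kifc1 to Kifc3. This gave 39 of the 16849 genes in the table. By the textbook role of their product, 13 were grouped as mitotic, 15 as transport and 11 as other (microtubule end regulators, cilium-linked motors and motors of unclear role).

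Transcripts were measured by RNA sequencing in RSC96, an established line of rat Schwann cells labelled wild type, so all groups come from 1 line. In the PVDF@PDA group the label gives hypoxia with a piezoelectric material, in the PCL@PDA group hypoxia with a non-piezoelectric material, and the third group is labelled Control. The series text states 24 hours in macrophage-conditioned medium as the model of hypoxia. Whether Control cells received that medium is not given in the sources used here, and in a comparison with Control the medium, the hypoxia and the material cannot be told apart. For PCL@PDA the free-text label speaks of PVDF@PDA, and the titles and treatment fields were taken instead. Each group had 2 libraries, labelled batch 1 and batch 3 and called replicate 1 and replicate 3 here. The library names number replicate 3 as 2, and count columns were matched by library name. No label says that the 2 libraries came from separate cultures, so p-values measure the spread between these libraries, which may be technical.

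Between 32760123 and 35389307 reads were counted per library. On the first principal component, which held 34.5% of the variance, both Control libraries lay apart from the other 4. On the second, with 20.8%, PCL@PDA replicate 3 lay lowest and apart from its partner (-28.5 against 6.09). Kinesin calls lost without PCL@PDA replicate 3 are named as such. Medians and calls for the lists of partner genes are given only with it. The Control libraries were also split on the second component, replicate 1 at 13.7 and replicate 3 at -13.6. The Schwann cell marker S100b stood at 2 to 28 counts per library, near the limit of detection. The 11 Schwann cell markers summed to 215 to 222 CPM (read counts scaled to the library size, described with the tests) for PVDF@PDA, 205 to 211 for PCL@PDA and 178 to 189 in Control. Macrophage markers, 9 of 12 listed being in the table, summed to 8.5 to 8.97, 7.33 to 8.77 and 7.56 to 7.89 CPM in the same order, and Ptprc was at 0 in 5 libraries with 1 count in the other. The sums were 808 to 828, 813 to 836 and 855 to 860 CPM for 5 fibroblast markers (Dcn at 0 or 1 count), 7.08 to 7.24, 6.28 to 6.45 and 8.21 to 8.28 for 5 endothelial markers, and 3.28 to 3.42, 1.66 to 2.75 and 0.890 to 3.00 for 6 neuron markers. Within these lists single markers moved in both directions. Of the Schwann cell markers, Ncam1 had the most counts in every library. In the edgeR fit described with the tests, the Schwann cell marker Erbb3 fell by 0.72 on the log2 scale with PVDF@PDA and by 0.61 with PCL@PDA, while Ncam1 and Pmp22 rose in both and Egr2 with PCL@PDA. Of 4 fibroblast markers tested, Col1a1 (0.68 and 0.71) and Pdgfra (0.65 and 0.57) rose and Col1a2, the bulk of the sum, fell by 0.15 and 0.14. The part of these marker differences in the kinesin results was not tested. In bulk RNA, fewer cells of a kind and less RNA per cell cannot be told apart, which applies to every kinesin level below.

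Promoters of the kinesins are shown first because the mitotic members fell together against Control. Genes expressed late in the cell cycle are known for a cell cycle homology region, most often spelled TTTGAA, close to their start site, and for CCAAT boxes upstream of it. RefSeq windows on the assembly GRCr8, from 250 bases before to 50 bases after the annotated start, were given for 30 of the 39 kinesins, as 31 windows because Kif2c has 2. TTTGAA on either strand occurred in 6 of 12 mitotic windows (Kif15, Kif20b, Kif22, Kif23, Kif4a and Kifc1), in 0 of 11 transport windows and in 1 of 8 other windows (Kif26b). It occurred in 18.3% of all 33469 windows of the same length. CCAAT on either strand occurred in 7 of 12 mitotic, 3 of 11 transport and 3 of 8 other windows, and in 37.5% of all windows. The spelling TTTAAA, added after the windows had been read, occurred in 3 of 12 mitotic windows (Kif11, Kif20a and Kif2c), in no transport or other kinesin window, and in 13.6% of all windows. The hexamers cannot overlap each other, and CCAAT can share 1 base with either. A match is a description of letters, not of a bound site. Matches did not follow the falls gene by gene. The windows of Kif18a and Kif18b held none of these motifs, yet both genes fell in both comparisons with Control. Kif15 is listed above with the first hexamer and was called in neither comparison in the edgeR fit described with the tests. A link between motif and level was not tested.

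Below are 130 bases from 120 before to 10 after the start, 5′ to 3′ on the gene's strand, with matches of TTTGAA or TTTAAA or CCAAT on either strand in capitals. The first 5 are mitotic kinesins that fell in both comparisons with Control, chosen to show both motifs side by side, and Kif5b is the most abundant transport kinesin.
Kif22, chr1:191080869-191080998, minus strand: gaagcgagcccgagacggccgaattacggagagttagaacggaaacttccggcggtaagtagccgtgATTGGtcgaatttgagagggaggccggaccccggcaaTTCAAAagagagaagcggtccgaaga
Kif23, chr8:71320575-71320704, minus strand: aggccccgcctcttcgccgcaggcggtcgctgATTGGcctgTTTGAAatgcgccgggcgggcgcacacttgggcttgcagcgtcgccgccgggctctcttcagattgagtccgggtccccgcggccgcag
Kifc1, chr20:5000809-5000938, plus strand: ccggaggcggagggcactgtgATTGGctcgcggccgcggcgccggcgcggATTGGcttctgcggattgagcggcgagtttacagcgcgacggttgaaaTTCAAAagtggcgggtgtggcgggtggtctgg
Kif4a, chrX:69761763-69761892, plus strand: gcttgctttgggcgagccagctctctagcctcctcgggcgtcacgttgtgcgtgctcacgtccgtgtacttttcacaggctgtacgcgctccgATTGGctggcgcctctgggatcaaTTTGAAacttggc
Kif11, chr1:244536747-244536876, plus strand: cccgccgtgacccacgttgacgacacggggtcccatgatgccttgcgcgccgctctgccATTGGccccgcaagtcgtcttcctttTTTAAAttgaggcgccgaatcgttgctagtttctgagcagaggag
Kif5b, chr17:56185266-56185395, plus strand: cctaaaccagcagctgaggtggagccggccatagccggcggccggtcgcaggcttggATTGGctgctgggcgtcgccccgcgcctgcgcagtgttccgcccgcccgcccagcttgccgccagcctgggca
In Kif22, Kif23, Kifc1 and Kif4a a CCAAT box on the reverse strand (ATTGG) lies upstream of a TTTGAA on one of the strands. Kif11 has the same box followed by TTTAAA, and Kif5b has the box with neither hexamer in this stretch.

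Level by length was compared in the authors' FPKM (reads scaled by gene length and by the library total). The most abundant kinesin was Kif5b, the heavy chain of conventional kinesin, with a mean of 97.2 FPKM over the 6 libraries. Among transport motors it was followed by Kif3c, a subunit of the heterodimeric kinesin-2 motor, at 33.2 FPKM and Kif1c, a kinesin-3 that moves dense-core vesicles, at 31.7. The most abundant mitotic kinesin was Kif11, the bipolar motor that pushes spindle poles apart, at 41.8 FPKM. Kif20a, a cytokinesis motor, and Kif22, which pushes chromosome arms away from the poles, came next. Among the others, Kif2a, which depolymerises microtubule ends, led with 27.02 FPKM, followed by Kif21a and Kif21b, which regulate microtubule growth. The neuronal motors Kif1a, with 0 to 6 counts per library, and Kif5a, with 4 to 12, were near or at the floor of detection, as were Kif12 (0 to 9) and Kif26b (0 to 15). These 4 had too few counts to be tested. A further 6 were tested but stayed under 100 counts in every library: Kif4b, Kif17, Kif5c, Kifc2, Kif6 and Kif9.

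**Figure D1:**
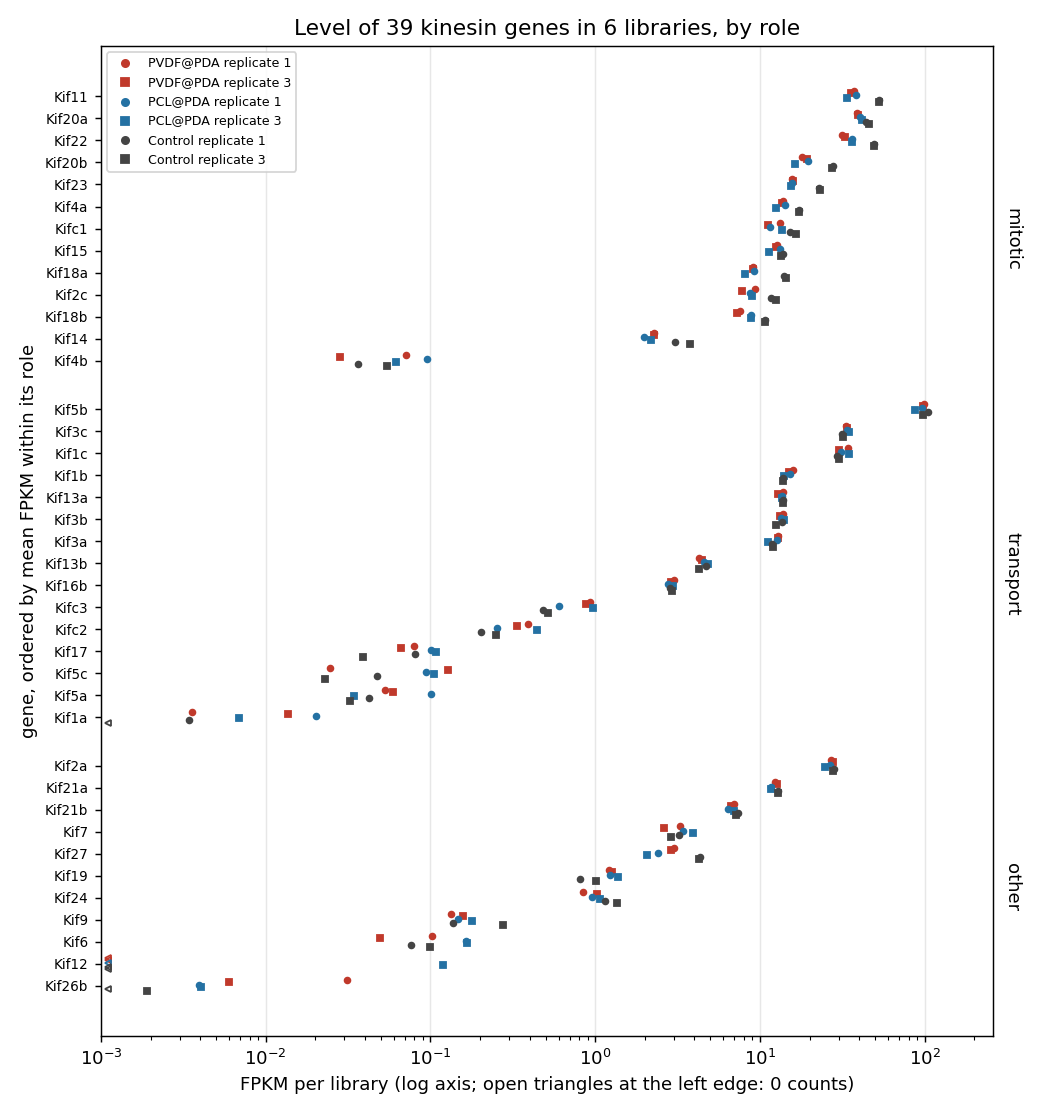
FPKM of the 39 kinesin genes in each of the 6 libraries on a log axis, grouped by role and ordered by mean level. Circles are replicate 1 and squares replicate 3, colours are the groups, and open triangles at the left edge are libraries with 0 counts. The Control points of Kif11, Kif22, Kif20b, Kif23 and Kif18a sit to the right of the other 4, while those of Kif3c, Kif1c and Kif16b do not.

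Summed over the 13 mitotic kinesins, Control libraries held 282 and 287 FPKM, against 209 and 207 with PVDF@PDA and 218 and 209 with PCL@PDA (replicate 1 then replicate 3, the order used throughout). Both Control libraries were above all 4 others. The 15 transport kinesins summed to 227 and 220 FPKM in Control, 232 and 224 with PVDF@PDA and 225 and 219 with PCL@PDA, with the groups overlapping. Mitotic genes thus made up 49.8% and 50.8% of all kinesin FPKM in Control, 42.2% and 42.6% with PVDF@PDA and 43.9% and 43.4% with PCL@PDA. The transport share was 39.98% and 39% in Control, 46.8% and 46.0% with PVDF@PDA and 45.4% and 45.6% with PCL@PDA. Sums over members have no test of their own here.

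**Figure D2:**
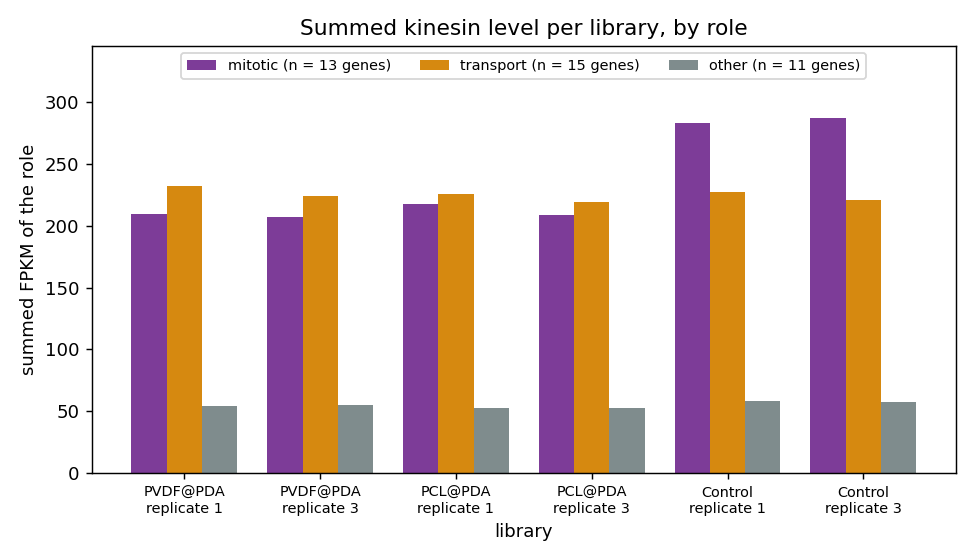
Summed FPKM of the mitotic, transport and other kinesins in each library, as bars from 0. The mitotic bar is above the transport bar in both Control libraries (282 and 287 FPKM against 227 and 220) and below it in the other 4.

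Differences between groups were tested on the counts in edgeR's quasi-likelihood fit over all 6 libraries, for 13018 genes, 35 kinesins among them. A gene was called where its Benjamini-Hochberg adjusted p over all genes tested was below 0.05, and adjusted p-values come from it except where DESeq2 or limma is named. Levels in these comparisons are TMM-scaled CPM, and differences are log2 values with their standard error (SE). The comparisons of PVDF@PDA and of PCL@PDA with Control share the Control libraries, so their values stand side by side and are not independent of each other.

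Against Control, 11 of the 13 mitotic kinesins fell with PVDF@PDA and none rose, in a comparison where 8.9% of all genes tested were called lower, 6.79% higher and 15.7% in either direction. Their median difference was -0.57 on the log2 scale, beside 0.01 over all genes tested. With PCL@PDA 11 of 13 fell as well, where 11.3% of all genes were called lower, 8.77% higher and 20.1% in either direction, and the median was -0.49 beside 0.01. In both comparisons the 11 were Kif11, Kif14, Kif18a, Kif18b, Kif20a, Kif20b, Kif22, Kif23, Kif2c, Kif4a and Kifc1. Without PCL@PDA replicate 3, 11 mitotic kinesins were again called lower with PCL@PDA and the median was -0.50. The share of mitotic kinesins called lower was 84.6% in each comparison.

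Motors that build and balance the bipolar spindle were Kif11, its partner Kif15 and the minus-end motor Kifc1. Kif11 (gene ID 171304) stood at 176 and 168 CPM with PVDF@PDA, 179 and 156 under PCL@PDA and 256 and 254 in Control. All 4 libraries of the material groups were below both Control libraries. The difference was -0.57 (SE 0.06, adjusted p = 1.75e-10) with PVDF@PDA and -0.60 (SE 0.06, adjusted p = 2.59e-11) with PCL@PDA. Kifc1 (294286), which cross-links and focuses spindle microtubules, was at 41.1 and 35.0, 36.0 and 42.1, and 48.9 and 52.6 CPM in the same order of groups. Control was again above all 4 others, with differences of -0.41 (SE 0.09, adjusted p = 0.00073) and -0.38 (SE 0.09, adjusted p = 0.00164). Without PVDF@PDA replicate 3 the PVDF@PDA difference of Kifc1 was -0.31 and no longer called (adjusted p = 0.0768). Kif15 (353302), a tetrameric motor that can share the pole-separating work of Kif11, was not called. It held 72.9 and 71.7 CPM with PVDF@PDA, 76.5 and 63.8 under PCL@PDA and 81.5 and 78.9 in Control, so Control was above the rest here too but by a smaller margin. Its differences were -0.15 (SE 0.07, adjusted p = 0.172) and -0.19 (SE 0.07, adjusted p = 0.0553). With the batch as a replicate block the PCL@PDA difference of Kif15 passed the test (adjusted p = 0.0206), as it did without PCL@PDA replicate 1 (-0.33, adjusted p = 0.000229) and without the filter on low counts (adjusted p = 0.0409).

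Kif18a, Kif18b and Kif2c act on microtubule ends, the first dampening chromosome oscillations at the metaphase plate, the second controlling astral microtubules, and the last taking microtubules apart at kinetochores. Kif18a (362186) held 35.2 and 35.0 CPM with PVDF@PDA, 35.3 and 30.7 under PCL@PDA and 55.1 and 56.8 in Control. Its differences were the most negative of the mitotic kinesins in both comparisons, at -0.67 (SE 0.09, adjusted p = 4.82e-08) and -0.76 (SE 0.09, adjusted p = 1.5e-09). Kif18b (303575) held 26.2 and 25.2, 31.0 and 30.4, and 38.6 and 38.3 CPM, and here the groups were fully ordered, with PVDF@PDA lowest and Control highest. It fell by 0.58 on the log2 scale (SE 0.10, adjusted p = 8.23e-06) with PVDF@PDA and by 0.33 (SE 0.09, adjusted p = 0.00963) with PCL@PDA, and the latter call was lost without Control replicate 1 (-0.32, adjusted p = 0.0810) or replicate 3 (-0.33, adjusted p = 0.0571). Kif2c (171529) held 30.2 and 25.0, 28.0 and 28.4, and 38.5 and 41.1 CPM. Both Control libraries were above the other 4, with differences of -0.53 (SE 0.10, adjusted p = 6.1e-05) and -0.50 (SE 0.10, adjusted p = 0.00013).

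Chromosome arms are moved by Kif22 and Kif4a, which bind chromatin. Kif22 (293502) held 65.3 and 67.8 CPM with PVDF@PDA, 75.0 and 73.5 under PCL@PDA and 105 and 104 in Control, again with no overlap between any of the 3 groups. Its differences from Control were -0.65 (SE 0.07, adjusted p = 9.06e-11) and -0.49 (SE 0.07, adjusted p = 8.56e-08). Kif4a (84393), which also shortens midzone microtubules, held 62.8 and 61.6, 64.9 and 56.7, and 80.5 and 80.2 CPM. It was lower than Control in all 4 libraries, with differences of -0.37 (SE 0.07, adjusted p = 0.000178) and -0.40 (SE 0.07, adjusted p = 3.75e-05). Kif4b (299255), which RefSeq lists as a pseudogene and which may share reads with Kif4a, had 7 to 24 counts per library. Its differences of 0.09 (SE 0.79, adjusted p = 0.959) and 0.74 (SE 0.76, adjusted p = 0.551) could not be resolved at this depth.

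The remaining mitotic members, Kif14, Kif20a, Kif20b and Kif23, serve the midzone and cytokinesis. Kif23 (315740), the motor of the centralspindlin complex, held 53.2 and 53.5 CPM with PVDF@PDA, 52.9 and 51.8 under PCL@PDA and 79.4 and 79.9 in Control. Its 2 libraries agreed closely in each group, and the differences were -0.58 (SE 0.07, adjusted p = 2.78e-08) and -0.61 (SE 0.07, adjusted p = 5.98e-09). Kif20b (309523), a midzone motor needed for abscission, held 105 and 111, 113 and 92.7, and 163 and 161 CPM. All 4 libraries were below Control, with differences of -0.59 (SE 0.07, adjusted p = 1.76e-08) and -0.66 (SE 0.07, adjusted p = 8.68e-10). Kif14 (360849), which recruits citron kinase to the midbody, held 16.3 and 16.3, 14.2 and 15.3, and 22.2 and 27.5 CPM. Its Control libraries lay further apart than those of the other called mitotic kinesins, and it fell by 0.61 (SE 0.12, adjusted p = 0.0002) and 0.75 (SE 0.12, adjusted p = 5.85e-06) on the log2 scale. Kif20a (361308), which brings the chromosomal passenger complex and Plk1 to the midzone, held 112 and 114, 118 and 119, and 131 and 136 CPM. Its differences were the smallest of the 11, at -0.24 (SE 0.06, adjusted p = 0.00388) and -0.18 (SE 0.06, adjusted p = 0.0271). The Kif20a call was lost with PVDF@PDA without PVDF@PDA replicate 1 (adjusted p = 0.0690) or Control replicate 3 (adjusted p = 0.0721), and with PCL@PDA without Control replicate 1 (adjusted p = 0.0972) or replicate 3 (adjusted p = 0.206) and under scaling to library totals alone (adjusted p = 0.0930).

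**Figure D3:**
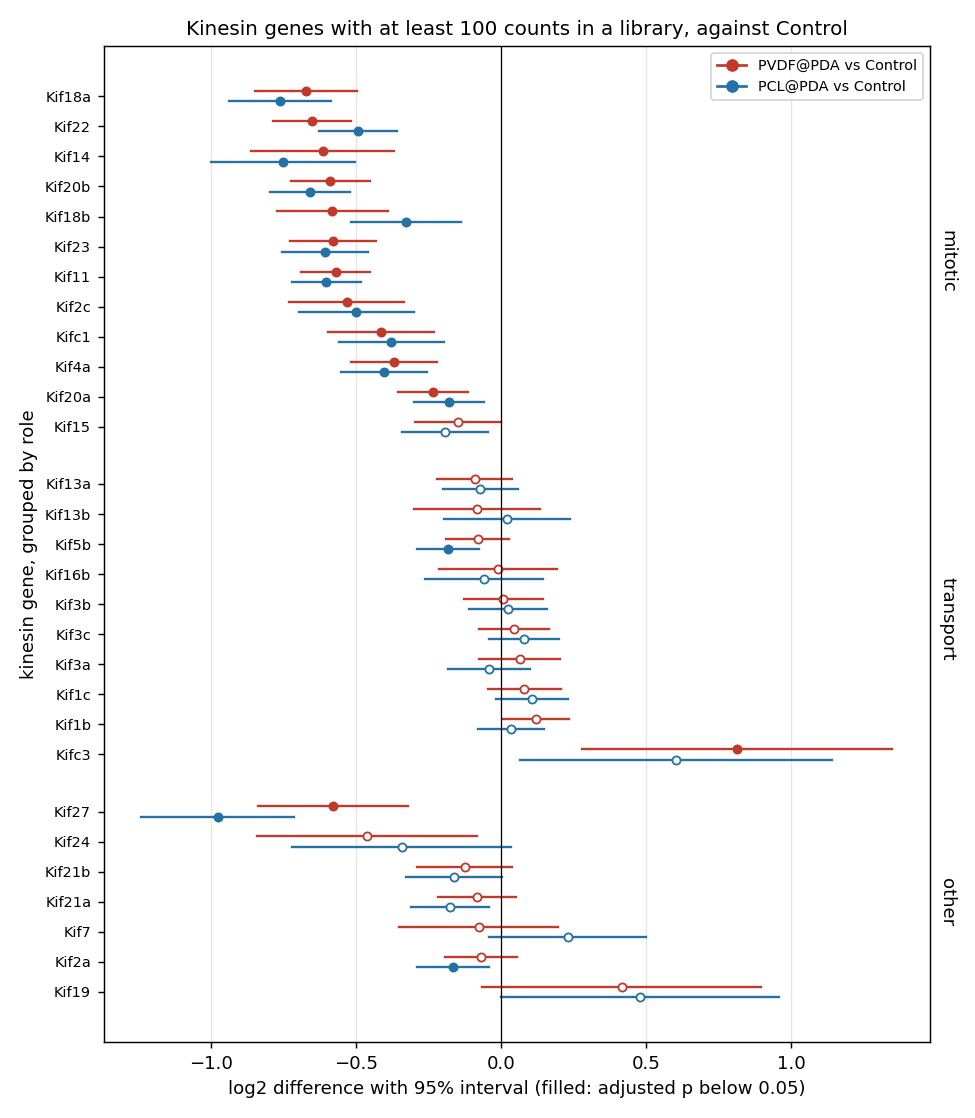
Log2 difference from Control for the 29 kinesins with at least 100 counts in some library, with 95% intervals from the edgeR fit. Red is PVDF@PDA, blue is PCL@PDA and filled points have an adjusted p below 0.05. The filled mitotic points lie between -0.76 (Kif18a) and -0.18 (Kif20a), and most transport points lie close to 0.

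Of the 13 transport kinesins tested, 1 rose and none fell with PVDF@PDA, and 1 fell and none rose with PCL@PDA. The share called was 7.69% in each, below the 15.7% and 20.1% of all genes called in either direction. Their medians were 0.06 and 0.03 on the log2 scale, beside 0.01 and 0.01 over all genes tested. Kifc3 (307644), a minus-end motor linked to cell junctions and apical transport, rose with PVDF@PDA. It held 4.56 and 4.26 CPM with PVDF@PDA, 2.95 and 4.67 under PCL@PDA and 2.43 and 2.58 in Control, from 81 to 160 counts per library. Control was below the other 4, and the PCL@PDA libraries spanned the PVDF@PDA values. The difference was 0.81 (SE 0.27, adjusted p = 0.0276) with PVDF@PDA and 0.60 (SE 0.27, adjusted p = 0.107) with PCL@PDA. That call did not hold in DESeq2 (adjusted p = 0.0720), or without PVDF@PDA replicate 1 or 3 (adjusted p = 0.136 and 0.0838) or Control replicate 1 or 3 (0.132 and 0.0890). Without PCL@PDA replicate 1, Kifc3 was called higher with PCL@PDA as well (0.90, adjusted p = 0.0211).

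Kif5b (117550) held 584 and 568 CPM with PVDF@PDA, 569 and 505 under PCL@PDA and 630 and 588 in Control. PCL@PDA replicate 3 was the lowest library. The gene fell by 0.18 on the log2 scale with PCL@PDA (SE 0.05, adjusted p = 0.0109), while the PVDF@PDA difference was -0.08 (SE 0.05, adjusted p = 0.34). Without PCL@PDA replicate 3 the first of these was -0.10 and no longer called (adjusted p = 0.147), and likewise without Control replicate 1 (-0.13, adjusted p = 0.253). Kif1b, which carries mitochondria and synaptic vesicle precursors, held 232 and 218, 222 and 202, and 207 and 207 CPM. Its PVDF@PDA difference of 0.12 (SE 0.06, adjusted p = 0.147) passed the test under scaling to library totals alone (0.16, adjusted p = 0.037), with only the 4 libraries compared (adjusted p = 0.0458) and without PCL@PDA replicate 1 (adjusted p = 0.04).

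The kinesin-2 subunits Kif3a, Kif3b and Kif3c, which work in cilia and in vesicle transport, had differences from Control between -0.04 and 0.08 on the log2 scale. Kif3c held 113 and 115 CPM with PVDF@PDA, 116 and 117 under PCL@PDA and 110 and 110 in Control, so both Control values were the lowest, by a margin that did not pass the test. Kif1c held 181 and 158, 164 and 181, and 159 and 162 CPM, with the groups overlapping. It was called with PCL@PDA only without PCL@PDA replicate 1 (0.17, adjusted p = 0.0195). The kinesin-3 motors Kif13a, Kif13b and Kif16b, which carry endosomal and membrane cargo, had values between -0.09 and 0.02. The low members Kif17, Kif5c and Kifc2 had fitted differences of 0.24 to 1.06 with PVDF@PDA and 0.58 to 1.43 with PCL@PDA, none of them called, from 3 to 56 counts per library.

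Among the 9 other kinesins tested, 1 fell with PVDF@PDA and 2 with PCL@PDA, with medians of -0.13 and -0.17. These are 11.1% and 22.2% of the group, beside 8.9% and 11.3% of all genes called lower. The first share is near the background, and the second rests on 2 genes, of which Kif2a was not called in most alternatives. Kif27 (246209), a relative of the hedgehog regulator Kif7 that is linked to motile cilia, fell in both. It held 15.0 and 14.5 CPM with PVDF@PDA, 12.2 and 10.2 under PCL@PDA and 22.3 and 21.7 in Control. The 3 groups did not overlap, with Control highest and PCL@PDA lowest. The differences were -0.58 (SE 0.13, adjusted p = 0.000793) and -0.98 (SE 0.13, adjusted p = 7.43e-08). Kif2a (84391) held 114 and 118, 112 and 104, and 123 and 120 CPM, and fell by 0.17 with PCL@PDA (SE 0.06, adjusted p = 0.048), beside -0.07 (adjusted p = 0.516) with PVDF@PDA. The Kif2a call was lost in 12 of 17 alternatives, at log2 values of -0.19 to -0.11 and adjusted p up to 0.28, including each omission of a library other than PCL@PDA replicate 1.

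Kif21a held 78.4 and 80.5, 75.1 and 73.8, and 84.7 and 83.5 CPM, and its PCL@PDA difference of -0.18 (adjusted p = 0.0546) passed the test with the batch as a replicate block (adjusted p = 0.0362) and without PCL@PDA replicate 1 (adjusted p = 0.0434). Kif21b was at -0.13 and -0.16, not called. Kif24, which restrains cilium growth at centrioles, was at -0.46 (SE 0.19, adjusted p = 0.0898) and -0.34 (adjusted p = 0.214). Kif19, a microtubule-depolymerising motor of cilia, was at 0.42 (SE 0.24, adjusted p = 0.256) and 0.48 (adjusted p = 0.161). Kif7 held 15.7 and 12.4, 16.4 and 18.4, and 15.7 and 13.9 CPM, with no call. Of all 39 kinesins, 12 overlap another counted gene on the newer annotation, namely Kif11, Kif15, Kif18a, Kif19, Kif20a, Kif27, Kif2a, Kif3c, Kif4a, Kif7, Kif9 and Kifc2. Since the counting strand is not given in the sources used here, reads there cannot be assigned to either gene with certainty.

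Piezoelectric and non-piezoelectric material were compared directly as the second question of the design. None of the 35 kinesins was called between PVDF@PDA and PCL@PDA by edgeR, in a comparison where 0.0615% of all genes tested were called (0.0538% higher with PVDF@PDA and 0.00768% lower), and none by limma or DESeq2. At an unadjusted p below 0.05 there were 4 of the 35, Kif18b, Kif22, Kif27 and Kif7, beside 1105 of the 13018 genes tested. Kif18b was lower with PVDF@PDA by -0.25 on the log2 scale (95% interval -0.45 to -0.06, adjusted p = 0.439) and Kif22 by -0.16 (interval -0.29 to -0.02, adjusted p = 0.507). Kif27 was at 0.40 (interval 0.13 to 0.66, adjusted p = 0.401) and Kif7, a regulator of hedgehog signalling at the cilium tip, at -0.31 (interval -0.58 to -0.04). For these genes no library of one material lay within the range of the other, which adds nothing, since they were picked by p in this comparison. Of the 35 kinesins, both PVDF@PDA libraries lay above both PCL@PDA libraries for 6 and below them for 8. The same count over all genes tested was not made, so this separation is not read as a result. The differences were above 0 for 17 kinesins and below 0 for 18.

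The intervals give how large a difference these libraries leave possible. For 18 of the 35 kinesins the 95% interval lay within 0.25 on the log2 scale in both directions, for 24 within 0.5 and for 29 within 1. Among mitotic kinesins 8 of 13 lay within 0.25 and 12 within 0.5, with Kif11 at 0.03 (interval -0.09 to 0.15). Among transport kinesins it was 7 and 9 of 13, with Kif5b at 0.10 (interval -0.01 to 0.21), and among the others 3 and 3 of 9. A missed threshold does not show that both materials act alike. Without PCL@PDA replicate 1, 3 kinesins were called, all higher with PVDF@PDA: Kif5b (0.19, adjusted p = 0.00487), Kif20b (0.22, adjusted p = 0.0218) and Kif27 (0.53, adjusted p = 0.0254). In that fit 827 of all genes were called against 8 with all 6 libraries, and PCL@PDA was then held by replicate 3 alone, the library that lay apart, with its spread assumed to be that of the other groups.

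**Figure D4:**
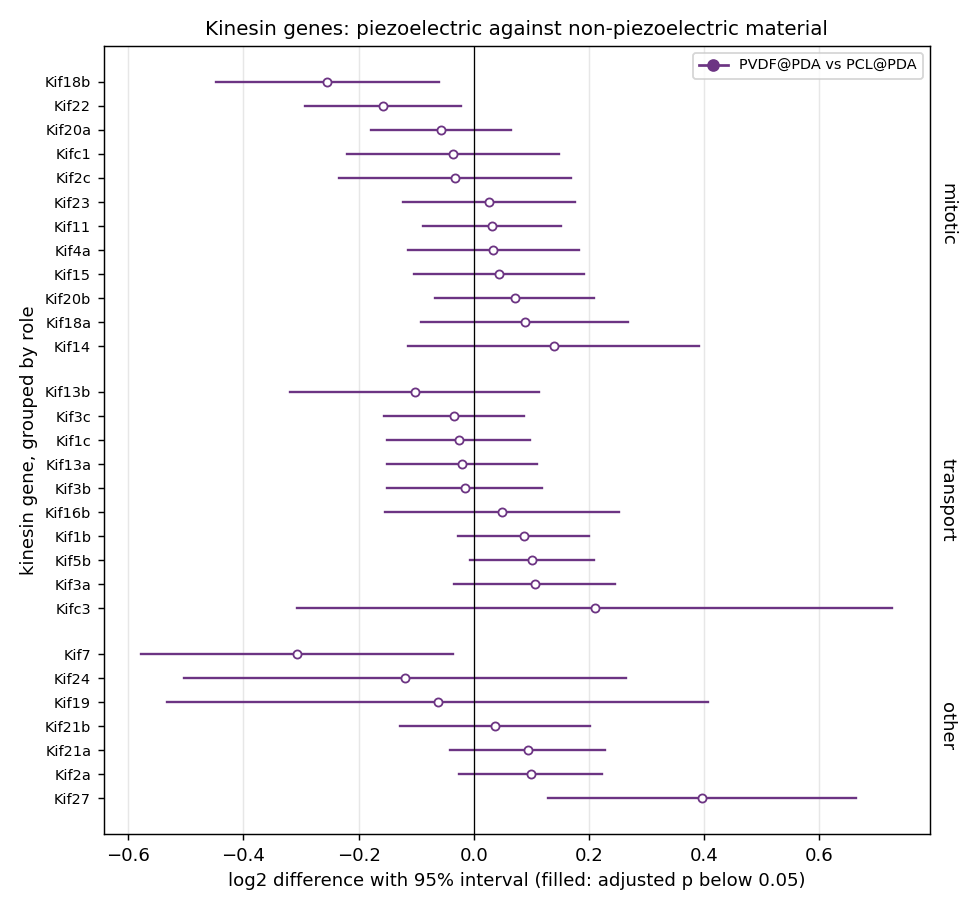
Log2 difference of PVDF@PDA minus PCL@PDA for the 29 kinesins with at least 100 counts in some library, with 95% intervals. No point is filled, since no kinesin had an adjusted p below 0.05, and the intervals of Kif18b, Kif22, Kif7 and Kif27 do not reach 0.

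Partners of the kinesins were read from lists of textbook members, chosen with earlier results of these data known. Cenpe, a kinesin at kinetochores that carries chromosomes to the plate but falls outside the symbol rule, held 155 and 158 CPM with PVDF@PDA, 151 and 134 under PCL@PDA and 228 and 226 in Control. It fell by 0.54 (SE 0.06, adjusted p = 5.08e-10) and 0.67 (SE 0.06, adjusted p = 4.59e-13) on the log2 scale, while Stard9, a mitotic kinesin at centrosomes, was at -0.05 and -0.10 and not called. Of all genes tested, 8.9% were called lower with PVDF@PDA and 11.3% with PCL@PDA, beside 89.3% of 28 spindle and midzone partners in each. Called higher were 6.79% and 8.77% of all genes, and 3.57% of the partners in each. Of these partners, 25 fell and 1 rose in each comparison, with medians of -0.41 and -0.50. Examples are Prc1, which bundles the midzone and recruits Kif4a, at -0.61 (adjusted p = 1.58e-12) and -0.68 (adjusted p = 2.85e-14). Anln, a scaffold of the cleavage furrow, was at -0.55 and -0.59, Ect2, a cytokinesis factor bound by centralspindlin, at -0.50 and -0.61, and Cenpf, a kinetochore protein, at -0.75 and -0.87. The exception that rose was Kntc1, a subunit of the complex that brings dynein to kinetochores, at 0.24 (adjusted p = 0.00544) and 0.21 (adjusted p = 0.00966).

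Cell cycle drivers mostly fell. Of 15, 10 fell and 1 rose with PVDF@PDA, and 9 fell and 2 rose with PCL@PDA, with medians of -0.36 and -0.37. The shares called lower were 66.7% and 60.0%, beside 8.9% and 11.3% of all genes tested. The shares called higher were 6.67% and 13.3%, beside 6.79% and 8.77%. The mitotic cyclin Ccnb1 was at -0.69 and -0.69, Ccnb2 at -0.66 and -0.69, Ccna2 at -0.65 and -0.64 and the topoisomerase Top2a at -0.52 and -0.60. Those that rose were Lin54, a DNA-binding subunit of the complex that recognises the cell cycle homology region, at 0.16 (adjusted p = 0.0293) and 0.15 (adjusted p = 0.036), and with PCL@PDA its partner Mybl2, at 0.27 (adjusted p = 0.0105). The transcription factor Foxm1, an activator of late cell cycle genes, fell by 0.60 and 0.43.

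Of 16 replication genes of S phase, 12 rose and none fell in each comparison, with medians of 0.46 and 0.55. The share called higher was 75.0% in each, beside 6.79% of all genes tested with PVDF@PDA and 8.77% with PCL@PDA. The subunits of the replicative helicase Mcm3, Mcm4, Mcm6 and Mcm7 were at 0.49 to 0.54 with PVDF@PDA and 0.57 to 0.71 with PCL@PDA. Mcm4, for one, held 262 and 260 CPM with PVDF@PDA, 279 and 271 under PCL@PDA and 181 and 188 in Control, so that Control was below all 4 others, the reverse of the order seen for Kif11.

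The cargo side of the transport motors, kinesin light chains and adaptors, were called at shares no higher than those over all genes, 10.5% with PVDF@PDA and 15.8% with PCL@PDA beside 15.7% and 20.1%. Of 19 tested, 2 fell with PVDF@PDA (Plekhm2, a lysosome adaptor, by 0.30, and Trak2, a mitochondrial adaptor, by 0.26), and with PCL@PDA 2 fell (Trak2 by 0.24 and Kifap3, the kinesin-2 accessory subunit, by 0.19) and 1 rose (Mapk8ip3, a kinesin-1 adaptor, at 0.26). Their medians were -0.01 and 0.04. Dynein and dynactin, the motor complex for the opposite direction, had 2 higher and 4 lower of 28 with PVDF@PDA and 5 higher and 6 lower with PCL@PDA, with medians of -0.05 and -0.03, which is 21.4% and 39.3% called beside 15.7% and 20.1% of all genes. A pair of related cargo adaptors of dynein moved in opposite directions, Bicd1 at -0.24 (adjusted p = 0.00249) and -0.33 (adjusted p = 1.89e-05) and Bicd2 at 0.25 (adjusted p = 0.000626) and 0.23 (adjusted p = 0.00126). Hook3, another adaptor, was at -0.41 and -0.50 and the light intermediate chain Dync1li2 at -0.21 and -0.27. Of 12 tubulins tested, the building blocks of the track, 6 fell with PVDF@PDA and 5 with PCL@PDA and none rose, with medians of -0.24 and -0.05. Summed over 14 tubulins, levels were 1952 and 1992 CPM with PVDF@PDA, 2033 and 2260 under PCL@PDA and 2330 and 2454 in Control. The PCL@PDA median without replicate 3 is not given. Over all genes tested, 8.9% were called lower with PVDF@PDA and 11.3% with PCL@PDA, so tubulins were called lower more often than the background. Tuba1a was at -0.53 and -0.43, Tubb4b at -0.35 and -0.20, Tubb6 at -0.32 and -0.20 and Tubb5 at -0.31 and -0.20. Between PVDF@PDA and PCL@PDA no gene of these 7 lists was called, except that with the batch as a replicate block Mcm5, another helicase subunit, was lower with PVDF@PDA (adjusted p = 0.0386, beside a difference of -0.28 and an adjusted p = 0.255 without the block).

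**Figure D5:**
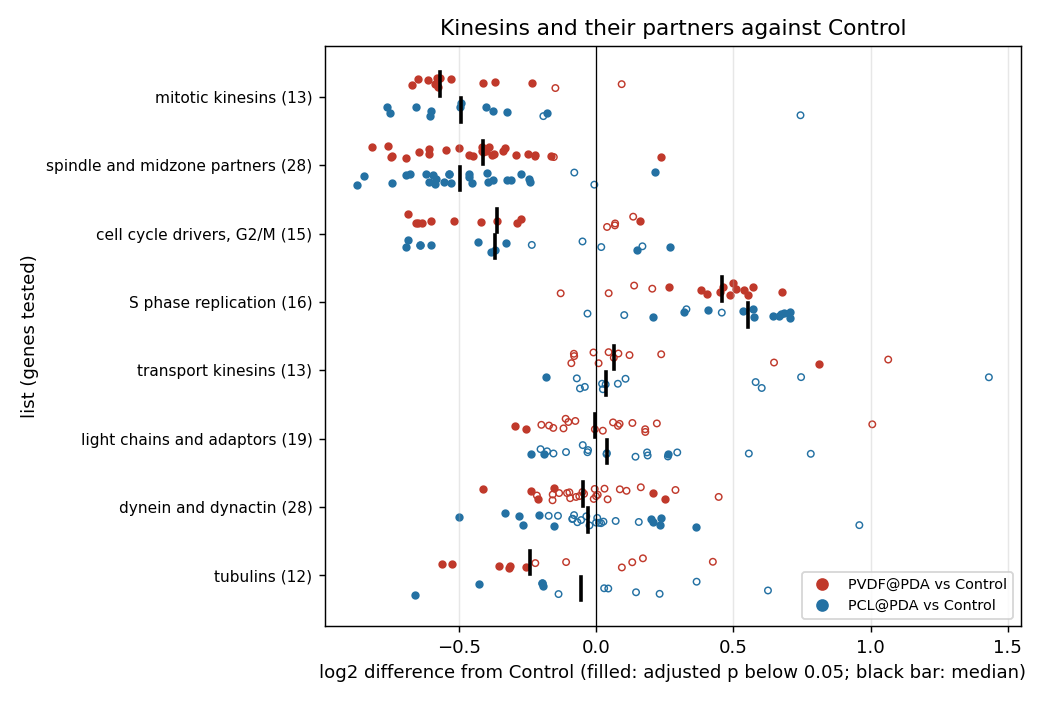
Log2 difference from Control for each tested gene of 8 lists, PVDF@PDA in red and PCL@PDA in blue, with filled points for an adjusted p below 0.05 and black bars for medians. Mitotic kinesins and spindle partners lie mostly below 0 (medians -0.57 and -0.49, -0.41 and -0.50), S phase genes above it (0.46 and 0.55), and transport kinesins around it (0.06 and 0.03).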

How the data were processed

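The authors deposited raw read counts per gene for all 6 libraries and FPKM per library, which they scaled by gene length and library total. Count and FPKM gave 1 gene length for each of the 15690 genes with reads in 2 or more libraries (relative tolerance 1e-05). Per the submitters' processing notes, DESeq2 1.4.5 and the assembly mRatBN7.2 were used, without their role; which aligner, counter, annotation or strand was used is not given in the sources used here. Libraries were grouped by their titles.

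The count model was edgeR 4.0.16 under R 4.3.3, with TMM scaling, filterByExpr and a robust quasi-likelihood fit of 3 group means over 6 libraries. It had 3 residual degrees of freedom and a biological coefficient of variation of 6.47%. A run on counts simulated with the spread of this fit checked the code only. It cannot show whether that spread is valid for these libraries. The filter kept 13018 genes. Tests were 2-sided. A total of 3 counts is 0.0848 to 0.0916 CPM, a floor that covers counting error only. The labels give batch 1 and batch 3 for the same-numbered libraries, so a fit with the batch as a replicate block was an alternative. Deviations from the group means had correlations within a batch of r = -0.02, 0.04 and 0.13. Chi-square per degree of freedom between the libraries of a group was 4.80 to 10.2, so none was a copy of another.

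The alternatives were other scalings, no filter, a non-robust fit, 4 libraries only, each library left out, DESeq2 1.42.0 and limma 3.58.1 on log2(FPKM + 1) and log2(FPKM + 0.1), and, chosen after seeing the data, removal of a gene length trend. Named are members called in any comparison, the 3 most abundant of each role, the member of each role with the largest difference among those at or above a mean log2 CPM of 1, and up to 4 genes of smallest p per list of partners; Kntc1, Lin54, Mybl2, Foxm1, Mcm5, the named cell type markers, the few called light chain genes and other members named in passing were added after their values were seen. Members and lists were chosen with earlier results of these data known. All 39 kinesins matched a RefSeq gene ID on GRCr8, which served for promoter windows, overlaps and biotypes only. Single values of some list genes are not reported here.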

Additional observations from a re-analysis of the deposited data

How the results depend on the processing

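Over 17 alternatives each, the 27 log2 values of called kinesins kept their direction in all 459 fits and their call in 403. The call was kept in every alternative for 11 of the 27 values, 5 with PVDF@PDA and 6 with PCL@PDA against Control. Leaving out 1 library gave 11 to 14 called kinesins with PVDF@PDA, 10 to 18 with PCL@PDA and 0 to 3 between the materials; mitotic kinesins called lower were 10 to 11, 9 to 12 and 0 to 0. The only such count above 0 between the materials, 3, came without PCL@PDA replicate 1. limma on log2(FPKM + 1) with no filter called 5 kinesins with PVDF@PDA and 6 with PCL@PDA. Of these, 5 and 5 were mitotic and lower. With the filter, limma on either log2 scale called 9 and 10. Over all genes, these fits called 859 and 1304 on log2(FPKM + 1) and 986 and 1413 on log2(FPKM + 0.1), beside 2042 and 2616 in edgeR. Lost there were Kif14, Kif20a, Kifc1 and Kifc3 with PVDF@PDA, and Kif20a, Kif2a, Kif5b and Kifc1 with PCL@PDA. The cause of these lower counts was not tested. With the batch as a replicate block the counts were 13, 16 and 0, beside 13, 14 and 0 without it; apart from Kif15 and Kif21a with PCL@PDA it changed no call of a kinesin. Removing the gene length trend left 13, 14 and 0.

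Over all genes, calls against Control ranged from 247 (limma on log2(FPKM + 1), no filter) to 2869 (without PCL@PDA replicate 3) with PVDF@PDA, beside 2042, and from 443 (the same limma fit) to 3173 (without PCL@PDA replicate 1) with PCL@PDA, beside 2616. Between the materials they ranged from 0 to 827, beside 8, and the block gave 59. Scaling to library totals alone turned the split of higher and lower calls from 884 and 1158 to 1164 and 879 with PVDF@PDA and from 1142 and 1474 to 1482 and 1070 with PCL@PDA, and left the mitotic kinesins called lower at 11 and 10. With 2 libraries per group, kinesins under 100 counts had intervals too wide to place.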
